A study of Mus musculus with 8 samples.

Results

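The genes described here encode the subunits of the oxidative phosphorylation machinery in MC38 cells, a mouse colon adenocarcinoma line. They were taken from the deposited count table by gene symbol: the mitochondrially encoded mt-Nd, mt-Co, mt-Cytb and mt-Atp genes, and the nuclear Nduf, Sdh, Uqcr, Cox4 to Cox8 and Atp5 genes, leaving out symbols that end in -ps or Rik. This gave 103 of the 29079 genes in the table, of which 13 are mitochondrially encoded and 90 nuclear. Of the nuclear members 82 are protein coding and 8 are processed pseudogenes, which had at most 6 reads in any library. The rule goes by gene name, and was drawn up with earlier results of these data known. After the filter on low counts all 13 mitochondrially encoded and 78 nuclear members were tested. The 12 that were not tested are the 8 pseudogenes and the tissue isoforms Cox4i2, Cox6a2, Cox6b2 and Cox8b.

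RNA of cultured cells was sequenced in 8 libraries, 2 in each of 4 groups. The groups are a line edited with a guide RNA against Piezo2 (KO) 60 hours after a single X-ray dose of 30 Gy, the same KO line without irradiation, a CRISPR control line (WT) 60 hours after 30 Gy, and the WT line without irradiation. Piezo2 is a mechanically gated ion channel. Both lines are CRISPR-treated and the KO rests on 1 guide. The labels do not say whether either line is a single clone, nor whether the libraries within a group were cultured separately. In bulk samples of this kind fewer cells and less RNA per cell cannot be told apart.

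Oxidative phosphorylation is carried out by complexes I to V of the inner mitochondrial membrane. Complex I (NADH dehydrogenase) and complex II (succinate dehydrogenase) pass electrons to coenzyme Q, complex III and cytochrome c hand them on to complex IV (cytochrome c oxidase), and complex V (ATP synthase) uses the resulting proton gradient to make ATP. Complexes I, III, IV and V are built from subunits of 2 genomes, whereas complex II is wholly nuclear. The mitochondrial genes are transcribed together as long precursors that are cut into separate mRNAs, with mt-Nd1 and mt-Nd2 lying nearest after the ribosomal RNA genes on the heavy strand transcript and mt-Nd6 read from the opposite strand. The nuclear subunits are transcribed one by one, imported as proteins and assembled with the mitochondrial ones.

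Total counts ran from 10.97 to 19.89 M per library. Piezo2 read counts were 7 and 12 for irradiated KO, 0 and 1 for the KO line without irradiation, 3 and 9 for irradiated WT, and 0 and 0 for the WT line without irradiation, so they do not check the KO label. The samples are labelled as an epithelial line. Of 10 epithelial markers 7 were in the table, and Krt18 and Cldn4, both defining markers, had at most 2 reads anywhere. Their summed level was 79.9 to 81.6 CPM (counts per M counts, scaled for library composition with TMM) in irradiated KO, 48.5 to 51.8 in non-irradiated KO, 76.7 to 79.3 in irradiated WT and 41.2 to 41.6 in non-irradiated WT. Of 10 macrophage markers Adgre1, C1qa, C1qb and Tyrobp had at most 2 reads, while the list summed to 56.1 to 64.8 CPM in irradiated KO, 7.32 to 7.96 in non-irradiated KO, 37.4 to 39.5 in irradiated WT and 3.83 to 3.87 in non-irradiated WT. The 8 fibroblast markers summed to 2599 to 2909, 1559 to 1686, 1627 to 1810 and 1151 to 1256 CPM in the same order of groups, with Lum at no more than 2 reads. Endothelial markers summed to 13.5 to 15.4, 8.06 to 9.06, 13.8 to 19.1 and 3.0 to 3.16 CPM, T cell markers to at most 0.51 CPM and muscle markers to at most 2.0 CPM. Marker sums thus moved with irradiation, and their part in the results below was not tested.

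The summed nuclear members were lower with irradiation in both lines, while the summed mitochondrially encoded members overlapped between the groups in KO and were higher in WT. Nuclear members summed to 6574 and 6281 CPM in irradiated KO (replicates 1 and 2), against 8273 and 8098 CPM in non-irradiated KO. In WT they summed to 6566 and 6307 CPM with irradiation, against 8524 and 7799 CPM without. The irradiated and non-irradiated libraries did not overlap in either line, and within a replicate number the sum was 20.5 and 22.4 percent lower with irradiation in KO and 23.0 and 19.1 percent lower in WT. Mitochondrially encoded members summed to 22240 and 20216 CPM in irradiated KO, against 21156 and 20529 CPM in non-irradiated KO, which overlapped. In WT they summed to 26910 and 25394 CPM with irradiation, against 24180 and 22780 CPM without, 11.3 and 11.5 percent higher within a replicate number. These sums rest largely on mt-Co1. Without it they were 9200 and 9845 CPM in irradiated KO, against 9785 and 11109.8 CPM in non-irradiated KO, 5.98 and 11.4 percent lower within a replicate number. In WT they were 12398 and 13468 CPM with irradiation, against 11314 and 12334 CPM without, 9.58 and 9.20 percent higher. The ratio of the mitochondrial to the nuclear sum was 3.38 and 3.22 in irradiated KO, against 2.56 and 2.54 in non-irradiated KO. It was 4.10 and 4.03 in irradiated WT, against 2.84 and 2.92 in non-irradiated WT. These ratios separated all 4 groups. As a share of all counts the nuclear members took 0.636 to 0.831 percent and the mitochondrially encoded ones 2.01 to 2.75 percent.

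**Figure D1:**
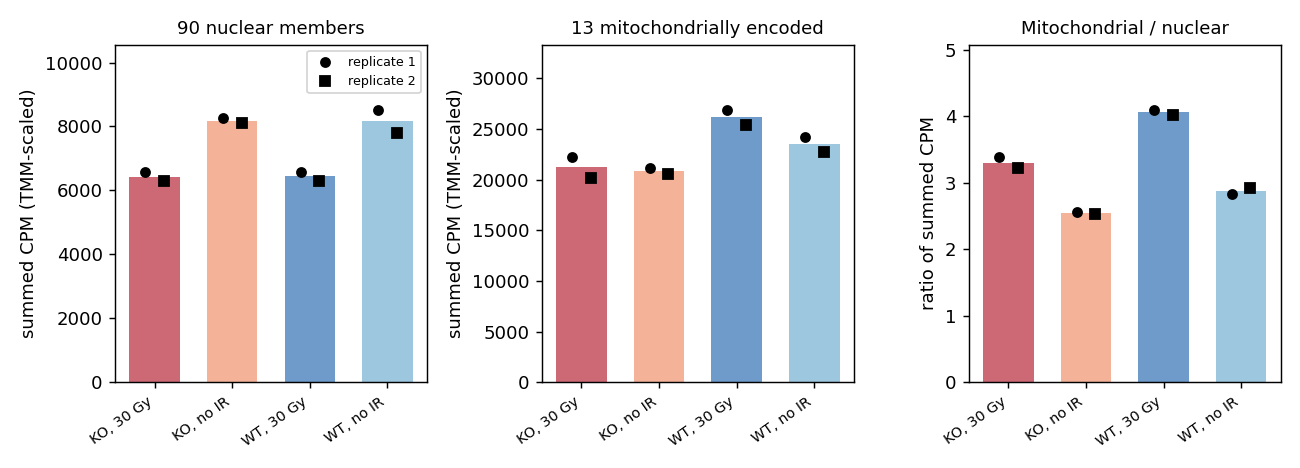
Summed level of the 90 nuclear members (left), the 13 mitochondrially encoded members (middle) and the ratio of the sums (right), with bars at the group mean and points for the 2 libraries, in TMM-scaled CPM. The nuclear sums of irradiated libraries (6281 to 6574 CPM) lie below those of non-irradiated ones (7799 to 8524 CPM), and the ratio is highest in irradiated WT.

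Gene by gene, 3 of 78 nuclear members were higher and 30 lower with irradiation in KO, and 4 were higher and 35 lower in WT (edgeR quasi-likelihood test, Benjamini-Hochberg adjusted over all 14923 tested genes, called at an adjusted p under 0.05). Over all tested genes 21.1 percent were higher and 18.6 percent lower in KO, and 20.4 percent higher and 18.4 percent lower in WT, so lower calls were more frequent among the nuclear members than in the background and higher calls less frequent. The median log2 change of the nuclear members was -0.30 in KO and -0.35 in WT, beside 0.02 and 0.03 for all tested genes. Replicate numbers deviated together across the groups, and with the replicate number as a block the counts became 7 higher and 48 lower in KO, against a background of 30.6 percent higher and 29.6 percent lower. In WT they became 6 higher and 50 lower, against 30.6 percent higher and 29.9 percent lower. Without irradiated WT replicate 2 or non-irradiated WT replicate 1 the lower count in WT was 20 or 18, and without irradiated KO replicate 2 or non-irradiated KO replicate 2 the higher count in KO was 1.

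The lines moved alike. Of the nuclear members lower with irradiation, 28 were called in both lines, which is 93.3 percent of the KO calls and 80.0 percent of the WT calls. Ndufv3, Cox7a2l and Ndufa4l2 were higher in both. The irradiation contrasts of the lines share no library, and across the 78 nuclear members their log2 changes had Pearson's r = 0.917 and Spearman's rho = 0.874, or r = 0.879 over the 76 members left without the low-count isoforms Ndufa4l2 and Cox7a1. Genes are not independent replicates, and this is a description. The overlap and the correlation were not worked out over all tested genes. Whether the likeness of the lines is particular to these members was therefore not tested.

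**Figure D2:**
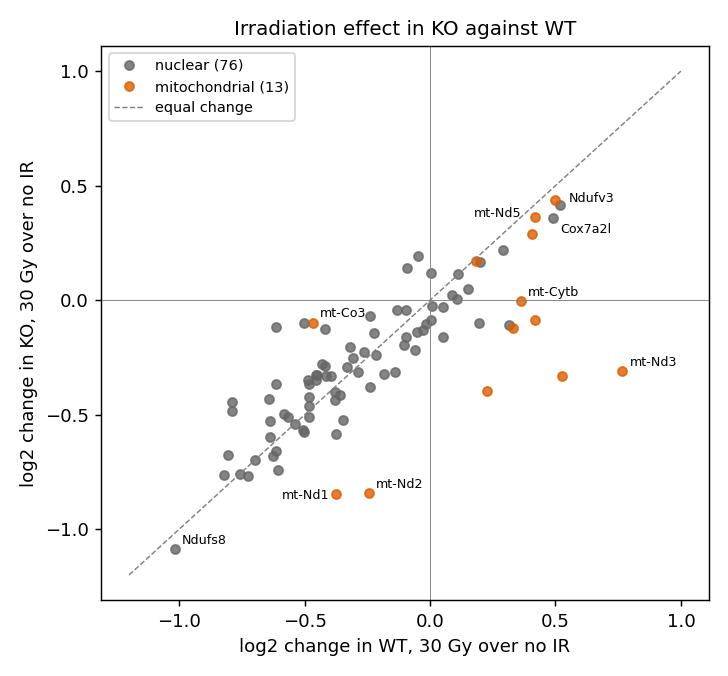
Log2 change with irradiation in KO (vertical axis) against WT (horizontal axis) for 76 nuclear members (grey) and 13 mitochondrially encoded ones (orange), with the dashed line marking equal change and the low-count Ndufa4l2 and Cox7a1 left out. Nuclear members lie along the line, down to Ndufs8 at -1.09 in KO and -1.02 in WT, while 12 of the 13 mitochondrially encoded members lie below it.

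Complex I, the largest of the complexes, had 35 of 38 nuclear members tested. With irradiation 1 was higher and 13 lower in KO (median log2 change -0.29), and 1 was higher and 16 lower in WT (median -0.38). With the block 3 were higher and 21 lower in KO, and 1 higher and 24 lower in WT. The deepest fall was that of Ndufs8, an iron-sulphur subunit of the arm that receives electrons (ENSMUSG00000059734, chromosome 19, 3908863 to 3912774, minus strand, mm10). Ndufs8 had 22 and 21.1 CPM in irradiated KO, against 44.5 and 47.2 CPM in non-irradiated KO. In WT it had 19.2 and 21.3 CPM with irradiation, against 38.8 and 43.5 CPM without. All 4 irradiated libraries lay below all 4 non-irradiated ones, with log2 changes of -1.09 ± 0.10 in KO (SE, edgeR adjusted p = 0.000158) and -1.02 ± 0.10 in WT (0.00026).

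Ndufs1, which carries further iron-sulphur clusters of the same arm, fell similarly. Its level was 57.1 and 52.1 CPM in irradiated KO, against 91.0 and 94.9 CPM in non-irradiated KO, and 53.7 and 52.6 CPM in irradiated WT, against 89.4 and 86.3 CPM in non-irradiated WT. The log2 changes were -0.77 ± 0.08 in KO (edgeR adjusted p = 0.000256) and -0.73 ± 0.08 in WT (0.000377). Ndufv1, the NADH-binding subunit, fell by 0.35 on the log2 scale in KO (edgeR adjusted p = 0.0054) and by 0.49 in WT (0.00124). Ndufb8, an accessory subunit of the membrane arm, fell by 0.74 in KO (0.00542) and by 0.61 in WT (0.013), and the WT call was lost without irradiated WT replicate 2 (edgeR adjusted p = 0.0814) or non-irradiated WT replicate 1 (0.0759). Ndufv3, an accessory subunit beside the NADH-binding site, went against the rest of its complex. It had 67.7 and 74.2 CPM in irradiated KO, against 51.3 and 55.0 CPM in non-irradiated KO, and 54.1 and 67.3 CPM in irradiated WT, against 42.4 and 42.5 CPM in non-irradiated WT. Its groups did not overlap within a line, and its log2 changes were 0.41 ± 0.11 in KO (edgeR adjusted p = 0.0235) and 0.52 ± 0.12 in WT (0.01). The KO call was lost without irradiated KO replicate 2 or either non-irradiated KO library (edgeR adjusted p = 0.127, 0.117 and 0.0603), and the WT call without irradiated WT replicate 2 or non-irradiated WT replicate 1 (0.0582 and 0.0552).

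Complex II, which also works in the citric acid cycle, split by subunit. Sdhb, its iron-sulphur subunit, had 69.1 and 72.0 CPM in irradiated KO, against 111 and 115 CPM in non-irradiated KO, and 60.5 and 61.2 CPM in irradiated WT, against 106 and 107 CPM in non-irradiated WT. The libraries of a group differed by far less than the groups, and the log2 changes were -0.67 ± 0.07 in KO (edgeR adjusted p = 0.00024) and -0.81 ± 0.07 in WT (0.000128). Sdha, the flavoprotein that oxidises succinate, fell by 0.25 in KO (edgeR adjusted p = 0.0199) and by 0.31 in WT (0.00946). Leaving out irradiated KO replicate 1 or either non-irradiated KO library ended the KO call (edgeR adjusted p = 0.123, 0.0684 and 0.067), and leaving out irradiated WT replicate 1 the WT call (0.0517). The membrane anchors Sdhc and Sdhd were not called, with log2 changes of -0.07 and -0.03 in KO and -0.24 and 0.01 in WT. With the block Sdhc was called lower in WT (edgeR adjusted p = 6.27e-05).

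Complex III had 8 of 10 nuclear members tested, of which 3 were lower in KO (median -0.42) and 5 lower in WT (median -0.57), with 0 higher in either. With the block 0 complex III members were higher and 5 lower in KO, and 1 higher and 6 lower in WT. At an unadjusted p under 0.05, over all nuclear members, edgeR had 4 higher and 36 lower in KO and 4 higher and 39 lower in WT. DESeq2 had 3 higher and 33 lower in KO and 5 higher and 38 lower in WT. Here and below, no share of all tested genes was worked out at the unadjusted cut, so such counts stand without a background. The core proteins Uqcrc1 and Uqcrc2 both fell. Uqcrc1 had 142 and 134 CPM in irradiated KO, against 206 and 188 CPM in non-irradiated KO, and 131 and 122 CPM in irradiated WT, against 199.8 and 174 CPM in non-irradiated WT, and its groups did not overlap (log2 -0.51 ± 0.09, edgeR adjusted p = 0.00425 in KO, and -0.57 ± 0.09, 0.00276 in WT). Uqcrfs1, the Rieske iron-sulphur protein, had 56.2 and 43.3 CPM in irradiated KO, against 77.5 and 62.1 CPM in non-irradiated KO, and 49.7 and 39.8 CPM in irradiated WT, against 85.5 and 69.1 CPM in non-irradiated WT. Replicate 2 was lower than replicate 1 in each group. Uqcrfs1 was called in WT at -0.79 ± 0.18 (edgeR adjusted p = 0.0119, but 0.0744 without irradiated WT replicate 2 and 0.0702 without non-irradiated WT replicate 1). It was not called in KO at -0.48 ± 0.18 (edgeR adjusted p = 0.0701), where the block gave an adjusted p of 1.24e-08. Cyc1, the cytochrome c1 subunit, whose symbol the naming rule does not reach, had 62.7 and 64.3 CPM in irradiated KO, against 103 and 117 CPM in non-irradiated KO, and 69.3 and 64.6 CPM in irradiated WT, against 131 and 126 CPM in non-irradiated WT. It fell by 0.80 in KO (edgeR adjusted p = 0.000354) and by 0.94 in WT (0.000183).

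Complex IV had 13 of 18 nuclear members tested, with 1 higher and 5 lower in KO and 2 higher and 5 lower in WT (medians -0.14 and -0.13). With the block 3 were higher and 7 lower in each line. Ndufa4, now counted as a subunit of complex IV although its name says complex I, had 38.5 and 41.7 CPM in irradiated KO, against 57.0 and 62.9 CPM in non-irradiated KO, and 67.7 and 67.2 CPM in irradiated WT, against 87.2 and 87.8 CPM in non-irradiated WT. It was lower with irradiation in each line (log2 -0.58 ± 0.08, edgeR adjusted p = 0.00134 in KO, and -0.38 ± 0.08, 0.00909 in WT) and lower in KO than in WT at either dose. Cox4i1, the regulatory subunit of the complex, stood at 205 and 233 CPM in irradiated KO, against 167 and 208 CPM in non-irradiated KO, and at 201 and 239.9 CPM in irradiated WT, against 165 and 195 CPM in non-irradiated WT. The KO groups overlapped and the WT groups did not, and it was called higher only with the block (log2 0.22 in KO, edgeR adjusted p = 3.07e-05, and 0.29 in WT, 3.26e-07). Cox5b and Cox6c, structural subunits, were not called in either line, at -0.04 and -0.14 in KO and -0.10 and -0.05 in WT, though the block called Cox6c lower in KO (edgeR adjusted p = 0.0312).

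Cox7a2l, a subunit family member that sits between complexes III and IV in supercomplexes, rose. It had 135 and 118 CPM in irradiated KO, against 107 and 91.7 CPM in non-irradiated KO, and 170 and 152 CPM in irradiated WT, against 122 and 107 CPM in non-irradiated WT. Each irradiated library was above both non-irradiated ones of its line, with log2 changes of 0.36 ± 0.12 in KO (edgeR adjusted p = 0.0419) and 0.49 ± 0.11 in WT (0.0122). The KO call was the less firm. It was lost with the mitochondrially encoded genes left out of the scaling (adjusted p = 0.0693), without either irradiated KO library, non-irradiated KO replicate 2, either irradiated WT library or non-irradiated WT replicate 1 (0.0527 to 0.236). The WT call was lost without irradiated WT replicate 1 or non-irradiated WT replicate 2 (0.0742 and 0.0784).

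The isoforms tied to hypoxia or muscle were rare. Ndufa4l2, a paralogue of Ndufa4 known as a target of hypoxia signalling, had 63 and 57 reads in irradiated KO, against 1 and 2 reads in non-irradiated KO, and 11 and 11 reads in irradiated WT, against 0 and 1 in non-irradiated WT. From the summed reads it was 37.1-fold higher with irradiation in KO (95 percent exact interval 12.4 to 182, covering counting error only) and 22-fold higher in WT (3.56 to 909, from 22 reads against 1). The edgeR adjusted p was 0.0005 in KO and 0.00442 in WT. Irradiated KO had 5.23-fold the level of irradiated WT (3.30 to 8.65, edgeR adjusted p = 0.00841), a call lost without irradiated KO replicate 1 (0.0669) or irradiated WT replicate 2 (0.0695). Cox7a1, the heart and muscle isoform of a small complex IV subunit, had 19 and 32 reads in irradiated KO, against 10 and 6 reads in non-irradiated KO, and 25 and 39 reads in irradiated WT, against 3 and 3 in non-irradiated WT. It rose in WT (10.7-fold, 4.64 to 30.2, edgeR adjusted p = 0.00428), whereas in KO the edgeR adjusted p was 0.0738 without the block and 0.0132 with it. Cox4i2, Cox6a2, Cox6b2 and Cox8b had at most 9 reads in any library. A count of 0 allows up to 3 counts, which is 0.154 to 0.275 CPM depending on the library.

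Complex V had 17 of 19 nuclear members tested, with 0 higher and 7 lower in each line (medians -0.32 in KO and -0.24 in WT), and with the block 0 higher and 13 lower in KO and 0 higher and 10 lower in WT. Atp5g2 and Atp5a1 had the deepest called falls in each line. Atp5b, the catalytic beta subunit, had 809 and 776 CPM in irradiated KO, against 1185 and 1180 CPM in non-irradiated KO, and 911 and 870.3 CPM in irradiated WT, against 1301 and 1223 CPM in non-irradiated WT. Irradiated and non-irradiated libraries were far apart in both lines (log2 -0.58 ± 0.07, edgeR adjusted p = 0.000786 in KO, and -0.50 ± 0.07, 0.00158 in WT). Atp5a1, the alpha subunit, fell by 0.76 in KO (edgeR adjusted p = 0.000465) and by 0.76 in WT (0.000509). Atp5g1 and Atp5g2, which encode the same mature c subunit of the membrane ring, fell too. Atp5g2 had 115 and 87.9 CPM in irradiated KO, against 204 and 143 CPM in non-irradiated KO, and 126 and 91.0 CPM in irradiated WT, against 228 and 155 CPM in non-irradiated WT. Replicate 2 was below replicate 1 in each group, so its SE was wide (-0.76 ± 0.26, edgeR adjusted p = 0.0484 in KO, and -0.82 ± 0.26, 0.0377 in WT) and shrank with the block (-0.76 ± 0.05 and -0.82 ± 0.05). Its KO call was lost without either irradiated KO library or non-irradiated KO replicate 1 (0.0665, 0.209 and 0.234), and its WT call without irradiated WT replicate 2 or non-irradiated WT replicate 1 (0.181 and 0.205). Atp5g1 fell by 0.57 in KO (0.0116) and by 0.51 in WT (0.018), calls lost without irradiated KO replicate 2 or non-irradiated KO replicate 1 (0.0697 and 0.059) and without irradiated WT replicate 2 or non-irradiated WT replicate 1 (0.0942 and 0.0983).

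**Figure D3:**
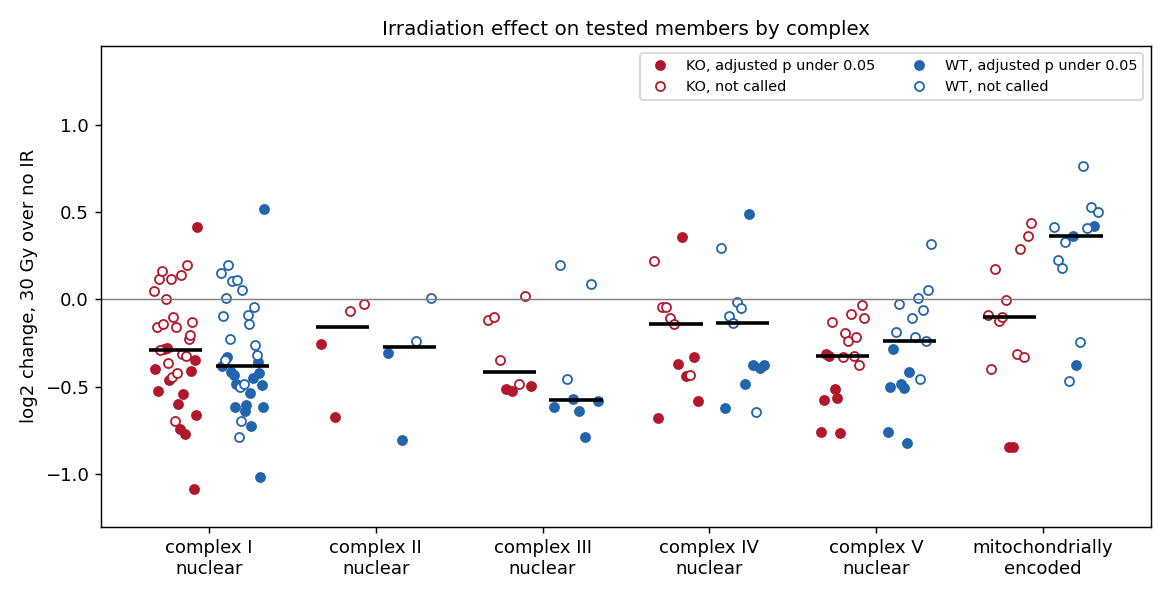
Log2 change with irradiation of each tested member, by complex, in KO (red, left of each pair) and WT (blue), with filled points for adjusted p under 0.05 and black bars at the median of the tested members. Ndufa4l2 and Cox7a1 lie beyond the axis and are not drawn, but Cox7a1 is in the complex IV medians. Nuclear medians lie between -0.57 and -0.13, and the mitochondrially encoded median is -0.10 in KO and 0.36 in WT.

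Nuclear subunit genes are known targets of the transcription factors NRF-1 and GABP (NRF-2), which bind close to the start site. The bases before the start were read from RefSeq (GRCm38.p6), where 63 of the 78 tested nuclear members were matched, over 250 bases and on both strands. The NRF-1 core GCGCANGCG was found in 14 of 63 (22.2 percent), against 9.65 percent of 13970 protein coding genes, and in 5 of the 23 matched members lower in both lines. The 63 members all passed the count filter, whereas the 13970 genes were not limited to those that did, so the sets are unlike. The GABP core CCGGAAG was found in 12 of 63 (19.05 percent, against 12.1 percent) and in 1 of those 23, and the YY1 core AAGATGGCG in 1 of 63 (1.59 percent, against 1.02 percent) and 0 of 23. Ndufs8 and Atp5g2 had the deepest mean falls over the lines among matched members. The window of Atp5g2 holds the NRF-1 core, on both strands and overlapping (capitals), that of Ndufs8 does not, and neither holds the other motifs. The windows are chr19:3912775-3913024 and chr15:102671048-102671297, both on the minus strand and shown 5′ to 3′. A match describes letters and is not a bound site.
Ndufs8: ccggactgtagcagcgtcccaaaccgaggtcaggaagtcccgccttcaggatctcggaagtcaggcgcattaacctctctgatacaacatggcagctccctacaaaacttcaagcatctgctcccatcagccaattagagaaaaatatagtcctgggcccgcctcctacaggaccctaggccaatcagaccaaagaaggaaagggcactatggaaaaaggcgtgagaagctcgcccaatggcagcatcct
Atp5g2: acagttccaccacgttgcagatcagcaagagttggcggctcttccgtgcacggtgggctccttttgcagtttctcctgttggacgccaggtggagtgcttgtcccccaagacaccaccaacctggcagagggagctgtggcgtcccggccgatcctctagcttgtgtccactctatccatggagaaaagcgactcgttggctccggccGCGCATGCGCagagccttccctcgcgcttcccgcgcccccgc

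The mitochondrially encoded members differed in level by several orders of magnitude, and this bears on which of them can be read. Per kilobase of exon and averaged over the 8 libraries, mt-Co1, the catalytic subunit of complex IV, was at 7601 CPM, mt-Nd1 at 2808, mt-Cytb at 2282, mt-Nd5 at 1435 and mt-Nd2 at 1232, whereas mt-Co3 was at 34.1, mt-Atp6 at 23.2, mt-Nd4l at 4.76 and mt-Nd3 at 3.10. The most abundant nuclear members on that scale were Cox6a1 at 252 and Atp5b at 244 CPM per kilobase. Of the low genes mt-Co3, mt-Atp6, mt-Nd4l and mt-Nd3 have near-identical copies in the nuclear genome, and mt-Atp8, at 12.2 CPM per kilobase, has none. Stretches of at least 100 bases at 99 percent identity or more to transcripts of other annotated genes covered 99.9 percent of mt-Co3 (Gm28437), 99.6 percent of mt-Co2 (Gm28661) and of mt-Atp6 (Gm10925), 99.1 percent of mt-Nd3 (Gm28438), 98.99 percent of mt-Nd4l (Gm10222), 63.6 percent of mt-Nd4 and 31.3 percent of mt-Co1, all on chromosome 1. None was found for mt-Nd1, mt-Nd2, mt-Nd5, mt-Nd6, mt-Cytb or mt-Atp8. Stretches of this kind were also found in 26 nuclear members, for example over 45.1 percent of Cox5b, 29.7 percent of Atp5j and 26.7 percent of Uqcrc2. Their part in the nuclear values was not tested. The chromosome 1 copies summed to 89.4 and 144 CPM in irradiated KO, 88.5 and 185 CPM in non-irradiated KO, 103 and 335 CPM in irradiated WT, and 102 and 321 CPM in non-irradiated WT. No source used here says how reads that fit more than 1 place were counted, so the values of mt-Co2, mt-Co3, mt-Atp6, mt-Nd3 and mt-Nd4l are uncertain and the part of the copies in them was not tested. The same holds for the matched stretches of mt-Nd4 and mt-Co1, and so for the mitochondrial sums and ratios above, which rest largely on mt-Co1.

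The contrast shows in 60-base windows of mitochondrial genes and nuclear copies (mm10, GENCODE M21), in which capitals mark the bases that differ. The pairs were set beforehand, and each window is the one with the most differences along its alignment. A window can therefore differ more than the alignment as a whole. Not all pairs are shown. Left out are mt-Co1 with Gm29216 on chromosome 1, 99.8 percent identical over 483 bases, and mt-Nd2 with Gm13339 on chromosome 2. The mt-Nd2 pair was 96.7 percent identical over 510 bases, below the 99 percent used for copies. For mt-Co3 and mt-Nd3 the first 60 bases are shown, and for mt-Cytb, which has no copy at 99 percent, bases 826 to 885 against Gm11410 on chromosome 4.
mt-Co3: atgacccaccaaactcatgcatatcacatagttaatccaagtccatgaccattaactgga
Gm28437: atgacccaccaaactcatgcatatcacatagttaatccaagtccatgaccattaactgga
mt-Nd3: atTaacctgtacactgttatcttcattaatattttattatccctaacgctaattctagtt
Gm28438: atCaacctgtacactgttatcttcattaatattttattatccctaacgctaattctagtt
mt-Cytb: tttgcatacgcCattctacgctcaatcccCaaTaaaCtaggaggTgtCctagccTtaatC
Gm11410: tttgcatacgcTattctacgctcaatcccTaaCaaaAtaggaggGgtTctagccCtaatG
The window of mt-Co3 has 0 differences, that of mt-Nd3 has 1, and that of mt-Cytb has 8. Over 783 aligned bases mt-Co3 and Gm28437 were 100 percent identical, and over 1142 bases mt-Cytb and Gm11410 were 92.9 percent identical.

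With irradiation the mitochondrially encoded members did not move as one. In KO 0 of 13 were higher and 2 lower, beside 21.1 percent higher and 18.6 percent lower of all tested genes. In WT 2 were higher and 1 lower, beside 20.4 and 18.4 percent. With the block 4 were higher and 2 lower in KO, beside 30.6 and 29.6 percent. In WT the block gave 7 higher and 3 lower, beside 30.6 and 29.9 percent. The median log2 changes over all 13 were -0.10 in KO and 0.36 in WT. Within replicates 1 and 2 the medians were 0.11 and -0.15 in KO, and 0.22 and 0.36 in WT. The 7 members with the highest mean CPM are mt-Nd1, mt-Nd2, mt-Nd4, mt-Nd5, mt-Nd6, mt-Cytb and mt-Co1. Their median was 0.17 in KO, with 4 above 0 and 3 below, and 0.36 in WT. The sign of the KO median thus depended on the low members and on the replicate. At an unadjusted p under 0.05, with no background at that cut, edgeR had 1 higher in KO, and DESeq2 called 1 higher and 2 lower there. The 2 genes lower in KO, mt-Nd1 and mt-Nd2, lie first along the heavy strand transcript. In WT mt-Nd1 was the 1 lower call, and the block added mt-Nd2 and mt-Co3, which lies farther along. mt-Nd1 (ENSMUSG00000064341, mitochondrial genome, 2751 to 3707), a membrane subunit of complex I, had 1685 and 1640 CPM in irradiated KO, against 2930 and 3046 CPM in non-irradiated KO, and 2638 and 2670 CPM in irradiated WT, against 3467 and 3420 CPM in non-irradiated WT. Replicates lay within a few percent of each other and all 4 groups were apart, with log2 changes of -0.85 ± 0.07 in KO (edgeR adjusted p = 6.55e-05) and -0.38 ± 0.06 in WT (0.00324). mt-Nd2 (ENSMUSG00000064345, 3914 to 4951) had 780 and 814 CPM in irradiated KO, against 1336 and 1523 CPM in non-irradiated KO, and 1290 and 1357 CPM in irradiated WT, against 1536 and 1598 CPM in non-irradiated WT. It fell in KO (-0.84 ± 0.09, edgeR adjusted p = 0.000283), and in WT it was at -0.24 ± 0.09 (0.0571, and 5.74e-08 with the block).

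The genes farther along the transcript were mixed. mt-Co3 had 20.1 and 20.3 CPM in irradiated KO, against 17.2 and 25.7 CPM in non-irradiated KO, and 23.8 and 30.9 CPM in irradiated WT, against 21.3 and 54.7 CPM in non-irradiated WT. Its groups overlapped in both lines, and it was not called in WT at -0.47 ± 0.39 (edgeR adjusted p = 0.385), though the block called it lower (-0.42, 0.00819). Of all 13 members 9 were below 0 in KO and 3 in WT in the fit without the block. Within replicates 1 and 2 these counts were 5 and 8 in KO, and 4 and 3 in WT. mt-Cytb, the cytochrome b of complex III (ENSMUSG00000064370, 14145 to 15288), had 2196 and 2019.6 CPM in irradiated KO, against 2124 and 2102 CPM in non-irradiated KO, which overlapped (log2 0.00 ± 0.07). In WT it had 3587 and 3409 CPM with irradiation, against 2758 and 2689 CPM without, and rose by 0.36 ± 0.07 (edgeR adjusted p = 0.00645, but 0.0597 without irradiated WT replicate 1). mt-Nd5 had 2796 and 3091 CPM in irradiated KO, against 2083 and 2498 CPM in non-irradiated KO, and 2807 and 3182 CPM in irradiated WT, against 2035 and 2448 CPM in non-irradiated WT. The lines were alike for mt-Nd5, which was called in WT (0.42 ± 0.13, edgeR adjusted p = 0.035) and missed the threshold in KO (0.36 ± 0.13, 0.0566, but 2.46e-14 with the block). Its WT call was lost without either irradiated KO library, either irradiated WT library or non-irradiated WT replicate 1 (0.0531 to 0.208). mt-Nd4, mt-Nd6 and mt-Co1 were called higher in both lines only with the block, at 0.29, 0.46 and 0.17 in KO and 0.41, 0.52 and 0.18 in WT.

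Replicate numbers weighed on several of these genes. mt-Nd6, the light strand gene, had 534 and 874 CPM in irradiated KO, against 366 and 672 CPM in non-irradiated KO, and 565 and 893 CPM in irradiated WT, against 374 and 659 CPM in non-irradiated WT. Replicate 2 was higher in each group, by more than the irradiation difference. mt-Co2 had 58.5 and 145 CPM in irradiated KO, against 54.0 and 166 CPM in non-irradiated KO, and 75.3 and 225 CPM in irradiated WT, against 64.7 and 175 CPM in non-irradiated WT, again with replicate 2 higher throughout. mt-Co1 went the other way, with 13039 and 10371 CPM in irradiated KO, against 11371 and 9419 CPM in non-irradiated KO, and 14512 and 11925 CPM in irradiated WT, against 12866 and 10446 CPM in non-irradiated WT. Replicate 2 moved from replicate 1 in the same direction in all 4 groups for 10 of 13 mitochondrially encoded members (76.9 percent) and for 50 of 78 nuclear ones (64.1 percent, 16 higher and 34 lower), beside 44.5 percent of all tested genes. The mitochondrial ribosomal RNA genes, which are no members, summed to 1630 and 1775 CPM in irradiated KO, 605 and 2440.2 CPM in non-irradiated KO, 1438 and 1619 CPM in irradiated WT, and 756 and 1031 CPM in non-irradiated WT, so they did not part the KO groups.

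**Figure D4:**
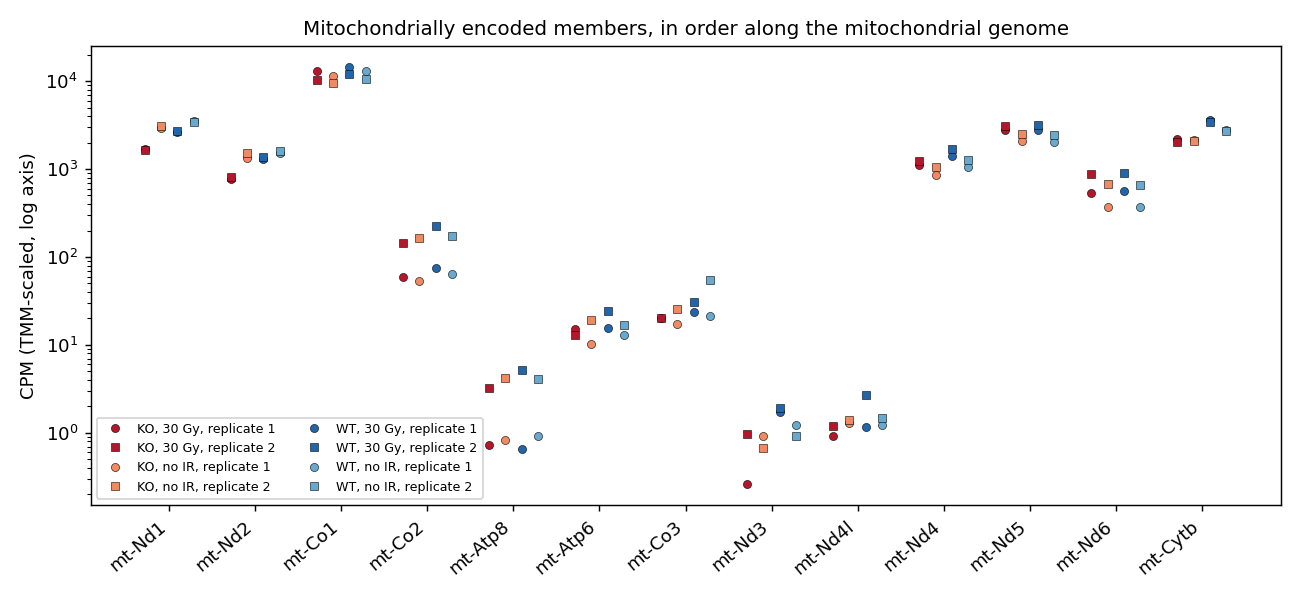
Level of the 13 mitochondrially encoded members in each library, in TMM-scaled CPM on a log axis, in order along the mitochondrial genome, with circles for replicate 1 and squares for replicate 2. mt-Nd1 and mt-Nd2 are lowest in irradiated KO (1640 to 1685 and 780 to 814 CPM), mt-Cytb is lower in KO than in WT, and replicate 2 of mt-Co2 lies above replicate 1 in each group.

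Between the lines, mt-Nd1, mt-Nd2 and mt-Cytb were called lower in KO after irradiation, and mt-Cytb also without. Comparing KO with WT after irradiation, 0 of 13 were higher and 3 lower (median log2 change -0.55), against a background of 13.3 percent higher and 11.4 percent lower and a median of -0.01 over all tested genes. With the block 0 were higher and 9 lower, against 25.2 percent higher and 25.2 percent lower. At an unadjusted p under 0.05, with no background at that cut, edgeR had 0 higher and 5 lower, and DESeq2 0 higher and 4 lower. Within a replicate number 12 of 13 in replicate 1 and 13 of 13 in replicate 2 were below WT, with medians of -0.23 and -0.63. Over the 7 members with the highest mean CPM the median was -0.39 without the block, and all 7 were below 0. The 3 called were mt-Nd1 (-0.67 ± 0.06, edgeR adjusted p = 0.000338), mt-Nd2 (-0.73 ± 0.09, 0.000904) and mt-Cytb (-0.73 ± 0.07, 0.000397), all with the values given above and with no overlap between the lines. mt-Nd5 and mt-Nd6 hardly differed, at -0.02 and -0.05, and were not called with the block either. Without irradiation 0 were higher and 1 lower (median -0.13), beside 10.4 percent higher and 9.49 percent lower of all tested genes, and with the block 0 higher and 7 lower, beside 21.4 and 23.5 percent. Unadjusted, again with no background at that cut, edgeR had 0 higher and 2 lower and DESeq2 0 higher and 4 lower. The call was mt-Cytb, at -0.37 ± 0.07 (edgeR adjusted p = 0.0117), lost without either non-irradiated KO library or non-irradiated WT replicate 1 (0.0703, 0.0567 and 0.0739).

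The nuclear sum hardly differed between the lines, by 0.117 and -0.419 percent within a replicate number after irradiation and by -2.95 and 3.83 percent without. Single members did differ. Of 78 nuclear members 6 were higher and 5 lower in KO after irradiation, and 5 were higher and 3 lower without, shares below the background just given, with medians of -0.01 and -0.04. With the block the counts were 19 higher and 18 lower after irradiation and 9 higher and 18 lower without. After irradiation 2 were higher without irradiated KO replicate 1 or irradiated WT replicate 2, and 2 to 3 were lower without irradiated KO replicate 1 or either irradiated WT library. Without irradiation 3 or 2 were higher without non-irradiated KO replicate 2 or non-irradiated WT replicate 2, and 1 was lower without non-irradiated KO replicate 1 or either non-irradiated WT library. Ndufa4 was lower in KO at -0.75 ± 0.08 after irradiation (edgeR adjusted p = 0.000669) and at -0.54 ± 0.08 without (0.00393). Atp5d, the delta subunit of the ATP synthase stalk, had 106 and 107 CPM in irradiated KO, against 142 and 145 CPM in irradiated WT, and 129 and 136 CPM in non-irradiated KO, against 166 and 160.1 CPM in non-irradiated WT. It was lower in KO after irradiation (-0.44 ± 0.07, edgeR adjusted p = 0.00319) and without (-0.30 ± 0.07, 0.02), the second call being lost without any one of the 4 non-irradiated libraries (0.0586 to 0.121). Atp5s, a complex V coupling factor, was lower after irradiation, with 6.76 and 7.24 CPM in irradiated KO, against 12.2 and 11.9 CPM in irradiated WT (-0.78 ± 0.14, edgeR adjusted p = 0.00715, 0.058 without irradiated KO replicate 1). Atp5e, the epsilon subunit, was at -0.37 ± 0.11 (0.0463), a call that DESeq2 did not make (adjusted p = 0.103) and that was lost without any one of the 4 irradiated libraries or either non-irradiated KO library (0.0596 to 0.177).

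Several other members that differed between the lines lie on chromosomes that differed as a whole. Over all tested genes the median KO over WT log2 change was 0.38 after irradiation and 0.37 without on chromosome 7, 0.40 and 0.38 on chromosome 18, and -0.36 and -0.32 on chromosome 16. Uqcrc2, on chromosome 7, had 97.6 and 88.6 CPM in irradiated KO, against 61.6 and 53.0 CPM in irradiated WT, and 141 and 127 CPM in non-irradiated KO, against 91.4 and 86.6 CPM in non-irradiated WT. It was higher in KO at 0.70 ± 0.10 after irradiation (edgeR adjusted p = 0.00233) and at 0.59 ± 0.10 without (0.00613). Cox6b1, a complex IV subunit on the same chromosome, was higher at 0.49 ± 0.07 (0.0023) and 0.58 ± 0.07 (0.00158). Atp5a1, on chromosome 18, had 531 and 500.4 CPM in irradiated KO, against 399 and 365 CPM in irradiated WT, and 906 and 839.8 CPM in non-irradiated KO, against 668 and 623 CPM in non-irradiated WT. Its differences, 0.43 ± 0.09 after irradiation (edgeR adjusted p = 0.0096) and 0.43 ± 0.09 without (0.0118), are close to the median of its chromosome. They were lost without irradiated KO replicate 1 or irradiated WT replicate 2 (0.0671 and 0.092), and without non-irradiated KO replicate 1 or non-irradiated WT replicate 2 (0.0703 and 0.079). Ndufa2, on chromosome 18 as well, was at 0.44 ± 0.11 (0.0221) and 0.40 ± 0.11 (0.0363), and DESeq2 called neither (0.0667 and 0.105). The call after irradiation was lost without either irradiated KO library or irradiated WT replicate 2 (0.0608 to 0.157), and the other without either irradiated KO library, non-irradiated KO replicate 2 or either non-irradiated WT library (0.0582 to 0.183). Atp5j, coupling factor 6 of ATP synthase on chromosome 16, was lower at -0.34 ± 0.09 (0.0262) and -0.32 ± 0.09 (0.0405). Its first call was lost without any one of the 4 irradiated libraries or non-irradiated WT replicate 1 (0.0524 to 0.165), and its second with DESeq2 (0.0716) and without any one library except non-irradiated KO replicate 2 (0.0652 to 0.213). Uqcrh, the hinge protein of complex III on chromosome 4, whose median was 0.09 and 0.08, was higher at 0.36 ± 0.09 (0.0292) and 0.42 ± 0.09 (0.0188). The first was lost without either irradiated KO library or irradiated WT replicate 2 (0.08 to 0.203), and the second without non-irradiated KO replicate 2 or either non-irradiated WT library (0.053 to 0.117). Of chromosome 7 genes 32.7 percent and of chromosome 18 genes 38.8 percent were called higher in KO after irradiation, and 34.2 percent of chromosome 16 genes lower. The part of such chromosome-wide differences in the members' values was not tested.

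**Figure D5:**
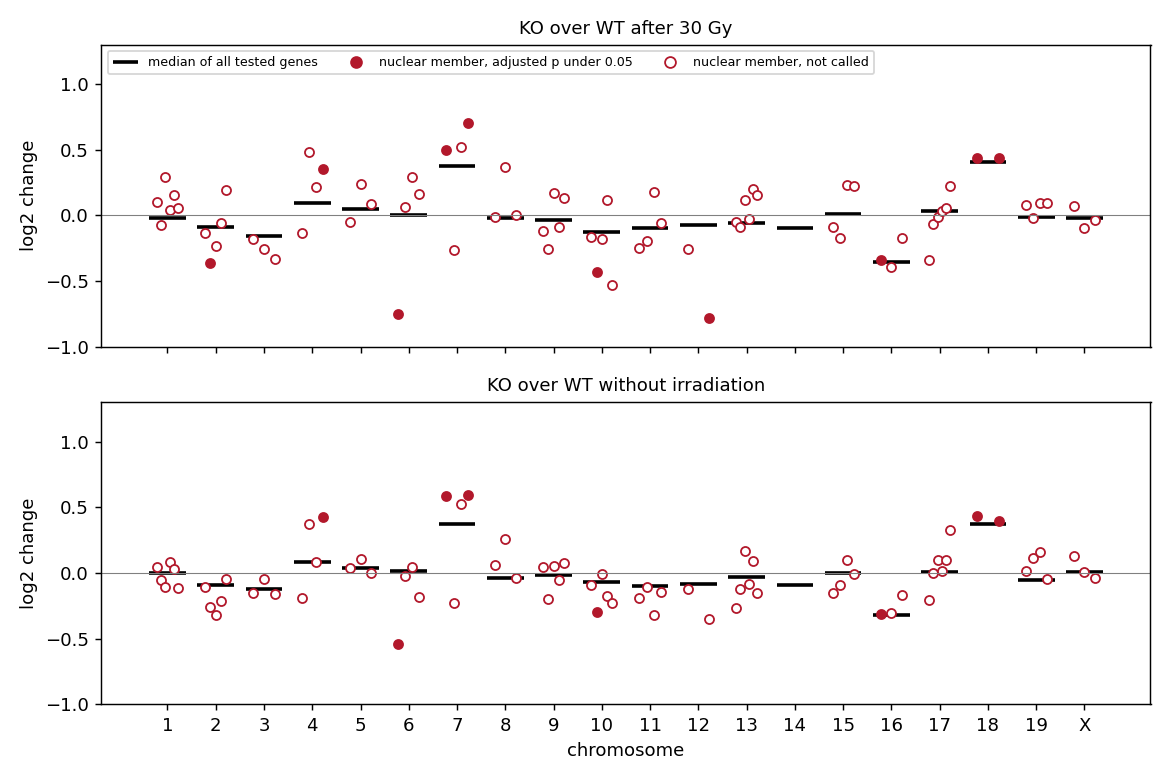
Log2 difference of KO over WT for each tested nuclear member by chromosome, after irradiation (top) and without (bottom), with filled points for adjusted p under 0.05 and black bars at the median of all tested genes of the chromosome; Ndufa4l2 and Cox7a1 are not drawn. Called members on chromosomes 7, 16 and 18 have the sign of their chromosome's median, while Ndufa4 (-0.75 after irradiation) and Atp5s (-0.78) lie on chromosomes 6 and 12 whose medians are near 0.

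The difference between the irradiation effects, KO minus WT, was tested as an interaction. By edgeR 0 of 78 nuclear and 0 of 13 mitochondrially encoded members passed, beside 1.37 percent higher and 0.57 percent lower over all tested genes. At an unadjusted p under 0.05 there were 0 higher and 1 lower nuclear and 0 higher and 3 lower mitochondrially encoded members. No background was worked out at that cut. DESeq2 called 0 nuclear and 2 mitochondrially encoded members, both lower. With the block 4 nuclear members were higher and 0 lower, and 0 mitochondrially encoded ones higher and 4 lower, beside 8.15 and 8.55 percent of all tested genes. mt-Nd1 came close without the block (-0.47 ± 0.09, edgeR adjusted p = 0.051, 1.45e-12 with it), as did mt-Nd2 (-0.60 ± 0.12, 0.0598 and 5.67e-13). In the blocked fit both genes were thus lowered further by irradiation in KO than in WT, and in the main edgeR fit, without the block, that difference missed the threshold. Over all 13 the median was -0.45 and 12 were below 0, beside a nuclear median of 0.00 with 41 of 78 below 0. Over the 7 members with the highest mean CPM the median was -0.12, and all 7 were below 0. Within replicates 1 and 2 the median over all 13 was -0.05 and -0.43. The size of the median thus rested on the low members, several with near-identical copies, and on the replicate.

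Genes that serve these complexes give the setting. The lists were chosen with earlier results of these data known, and the counts stand beside the background above. Of 77 mitochondrial ribosomal protein genes, which translate the 13 mRNAs, 0 were higher and 40 lower with irradiation in KO and 0 higher and 50 lower in WT (medians -0.42 and -0.51). Mrpl19 had 16.8 and 13.8 CPM in irradiated KO, against 38.6 and 33.2 CPM in non-irradiated KO, and 16.6 and 13.5 CPM in irradiated WT, against 38.6 and 34.1 CPM in non-irradiated WT, and its groups were far apart in both lines (log2 -1.23 and -1.28, edgeR adjusted p = 0.000689 and 0.000618). Citric acid cycle enzymes had 1 higher and 13 lower of 19 in KO and 1 higher and 12 lower in WT. Idh3a, a subunit of the NAD-dependent isocitrate dehydrogenase, fell by 0.99 in KO (edgeR adjusted p = 0.000114) and by 0.88 in WT (0.000226), and the exception was Pcx, pyruvate carboxylase, at 1.24 in KO (0.000261) and 1.16 in WT (0.000359). Carriers and import factors had 0 higher and 13 lower of 25 in KO (21 lower with the block) and 0 higher and 17 lower in WT. Among them Slc25a5, an ADP/ATP carrier that supplies complex V, had 129 and 121 CPM in irradiated KO, against 362 and 329 CPM in non-irradiated KO, and 189 and 164 CPM in irradiated WT, against 457 and 397 CPM in non-irradiated WT (log2 -1.47, edgeR adjusted p = 5.55e-05, and -1.28, 0.000133).

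Regulators and most assembly factor lists had calls in both directions in KO. Of 12 regulators of mitochondrial biogenesis 2 were higher and 6 lower in KO and 1 higher and 6 lower in WT (medians -0.71 and -0.48). Pprc1, a coactivator of NRF-1, fell by 1.00 in KO (edgeR adjusted p = 0.00519) and by 0.75 in WT (0.017, but 0.0913 without irradiated WT replicate 1 and 0.0911 without non-irradiated WT replicate 2), Gabpb1, a GABP subunit, by 0.92 (0.000466) and 0.86 (0.000634), and Myc, a transcription factor of cell growth, by 1.27 (0.000335) and 0.55 (0.0135, but 0.0775 without irradiated WT replicate 1 and 0.072 without non-irradiated WT replicate 2). Nfe2l2, the oxidative stress regulator NRF2, rose by 0.36 ± 0.07 in KO (0.00664) and 0.77 ± 0.07 in WT (0.000198). Assembly factors had 2 higher and 4 lower of 18 for complex I in KO and 0 and 7 in WT, 1 and 2 of 10 for complexes II and III in KO and 1 and 4 in WT, 1 and 5 of 21 for complex IV in KO and 0 and 6 in WT, and 0 and 1 of 5 for complex V in each line. For complexes I, II, III and V the lower calls in KO were near the background of 18.6 percent. With the block the background was 30.6 percent higher and 29.6 percent lower in KO, and 30.6 and 29.9 percent in WT. The assembly factor counts then became 3 and 11 in KO and 2 and 11 in WT for complex I. For complexes II and III they became 1 and 5 in KO and 2 and 5 in WT. For complex IV they became 8 and 8 in KO, as many higher as lower, and 2 and 7 in WT, and for complex V 0 and 2 in KO and 0 and 4 in WT. Uqcc2, needed to make cytochrome b, fell by 0.81 (0.000763) and 0.83 (0.000738), and Higd2a, a complex IV assembly factor, fell as well, with log2 changes of -0.75 (0.000622) and -1.29 (6.99e-05). Coenzyme Q genes had 2 higher and 4 lower of 13 in KO and 2 and 7 in WT, with Coq7, a hydroxylase of its synthesis, at -1.29 (0.00256) and -1.60 (0.00116) and the kinase-like Coq8a at 1.48 (0.00042) and 1.99 (0.000171). Genes of mitochondrial DNA transcription and replication had 1 higher and 3 lower of 18 in KO and 0 and 1 in WT. Their shares of lower calls were not above the background. The cytochromes c and c1 had 0 and 1 of 3 in each line. With the block the first list had 2 higher and 4 lower in KO and 3 and 5 in WT, and the cytochromes 0 and 3 in each line. Blocked counts for the regulators were 3 and 8 in KO and 2 and 6 in WT, and for coenzyme Q genes 2 and 6 in KO and 2 and 9 in WT.

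Factors that process or degrade mitochondrial RNA had 1 higher and 10 lower of 17 in KO and 0 higher and 10 lower in WT, and 1 of them moved in opposite directions. Elac2, which cuts the transfer RNA ends out of the precursor, fell by 0.73 in KO (edgeR adjusted p = 0.000746) and by 0.73 in WT (0.000745), and Tbrg4, which binds mitochondrial mRNAs, by 0.70 (0.000782) and 0.83 (0.000359). Pnpt1 encodes the polynucleotide phosphorylase of mitochondria, an RNA-degrading enzyme that is also interferon-inducible. It had 103 and 93.0 CPM in irradiated KO, against 52.4 and 55.4 CPM in non-irradiated KO, and 39.6 and 36.8 CPM in irradiated WT, against 65 and 64.9 CPM in non-irradiated WT. Irradiated KO was the highest group and irradiated WT the lowest, with no overlap. Pnpt1 rose in KO (0.86 ± 0.09, edgeR adjusted p = 0.000236) and fell in WT (-0.77 ± 0.09, 0.00048), and the interaction was 1.63 ± 0.12 (0.00117). It was the only gene of the pathway lists called in the interaction by edgeR without the block.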

How the data were processed

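RNA of 8 libraries was measured by sequencing. The deposited table holds raw read counts per gene made by the authors, and HISAT2, HISAT, HTSeq, DESeq2 and the build mm10 are named per the submitters' processing notes. No source used here says how strand or reads with several matches were treated. Totals were 10.97 to 19.89 M counts per library.

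Counts were tested with edgeR 4.0.16 (R 4.3.3, limma 3.58.1) by the quasi-likelihood method: filterByExpr with a minimum count of 10 and total of 15, TMM scaling, all 8 libraries in 1 model of the 4 groups (4 residual df), and Benjamini-Hochberg adjustment over 14923 genes, called under 0.05. SE is the log2 change over the root of its F value. CPM are TMM-scaled. Intervals and the floor of 3 counts cover counting error only, and p-values measure only how libraries differ, possibly for technical reasons. Coordinates are from GENCODE M21, which placed 28915 of 29079 IDs, and near-identical copies were searched with BLAST 2.17.0. Only the fit without the block was run on simulated counts with set changes. Those counts had less dispersion than these data and no shared replicate deviations, so the run does not check the calls made here.

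The members and lists were chosen with earlier results of these data known. Named genes were all mitochondrially encoded members, fixed anchor subunits, tissue isoforms, the 5 largest rises and falls per comparison at 5 CPM or more, and up to 2 of each per pathway list. Not all genes meeting the rule are printed.

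The labels give replicate numbers and no pairing. Deviations from the group means of same-numbered libraries correlated at 0.564 to 0.611 over tested genes in all 6 pairs of groups. Differences within a replicate number are given for that reason. In every pair of groups the correlation exceeded the value set, before calls were compared, for treating the libraries as paired. The calls given first nonetheless come from a fit without a replicate block. They depart from that criterion and take no account of the shared deviation. The blocked fit was run as an alternative. The alternatives were RLE scaling, DESeq2 1.42.0, no filter, the replicate block, mitochondrially encoded genes left out of the scaling, and each library left out in turn.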

Additional observations from a re-analysis of the deposited data

Results flagged for a closer look

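The effect of irradiation in KO minus that in WT was tested as an interaction. The 9 genes given here are the members called with the replicate block and the 1 list gene called without it. With the block other list genes were called too, and these are not named. Among them were 6 mitochondrial ribosomal protein genes higher and 0 lower, and 5 regulators of mitochondrial biogenesis lower and 0 higher. Over all tested genes the blocked fit called 8.15 percent higher and 8.55 percent lower. With the replicate block the difference was -0.60 on the log2 scale for mt-Nd2 (edgeR adjusted p = 5.67e-13), -0.47 for mt-Nd1 (1.45e-12), -0.37 for mt-Cytb (1.92e-09) and -0.39 for mt-Co2 (0.000236). In the same fit it was 0.49 for Uqcr10, a small subunit of complex III (0.000863), 0.30 for Uqcrfs1 (0.0179), 0.38 for Ndufb3, a membrane arm subunit of complex I (0.0252), and 0.25 for Ndufa9, an accessory subunit of complex I (0.0441). None of these 8 was called in the main edgeR fit, without the block, where mt-Nd1 had an edgeR adjusted p of 0.051 and mt-Nd2 of 0.0598. DESeq2, also without a block, called 2 mitochondrially encoded members lower, and some other alternatives without a block made calls too, given below. Uqcr10 had 44.2 and 35.3 CPM in irradiated KO, against 46.2 and 40.1 CPM in non-irradiated KO, and 38.9 and 31.4 CPM in irradiated WT, against 58.0 and 49.5 CPM in non-irradiated WT. mt-Co2 is matched over nearly its whole length by a copy on chromosome 1, whose part in its value was not tested.

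Pnpt1, which is no subunit, differed by 1.63 without the block (edgeR adjusted p = 0.00117) and by 1.62 with it (1.5e-17). Its call held in all 13 alternatives.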

How the results depend on the processing

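Of the 64 called results on named members, 737 alternative values kept direction and call, 95 kept the direction and lost the call, and 0 reversed. The lost calls came with DESeq2 (5), no filter (1), mitochondrially encoded genes left out of the scaling (1) and single libraries left out (7 to 15 each). Of 72 called results on list genes 887 values held and 49 lost the call. The replicate block ended 0 calls of named members, and the calls it added are in the counts given here and above. With the replicate block, irradiation in KO gave 7 nuclear members higher, 48 lower and 6 mitochondrially encoded ones called, and irradiation in WT 10 mitochondrially encoded ones. KO over WT gave 19 higher, 18 lower and 9 after irradiation, and 9 higher, 18 lower and 7 without, where the nuclear minus mitochondrial median was 0.11. The blocked interaction gave 4 nuclear higher and 4 mitochondrially encoded. Without a filter, mitochondrially encoded calls were 4 (irradiation in KO), 7 (irradiation in WT), 8 (KO over WT after irradiation), 2 (without) and 1 (interaction). The nuclear calls without a filter were 8 lower after irradiation, and 8 higher and 5 lower without. DESeq2 called 5 mitochondrially encoded members for irradiation in WT and 2 in the interaction, where RLE scaling called 1 and leaving them out of the scaling 2. The cause of these shifts was not tested.

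With single libraries left out, irradiation in KO gave 1 to 3 nuclear higher, 20 to 30 lower and 2 to 3 mitochondrially encoded, and irradiation in WT 3 to 4, 18 to 33 and 1 to 4. KO over WT gave 2 to 7, 2 to 5 and 3 to 4 after irradiation, and 2 to 6, 1 to 3 and 0 to 1 without. The interaction gave 0 throughout. The nuclear minus mitochondrial median ran from -0.48 to 0.10 for irradiation in KO (-0.20 with all libraries, 0.10 without non-irradiated KO replicate 1), and from -0.92 to -0.37 for irradiation in WT. It ran from 0.24 to 0.74 for KO over WT after irradiation, from -0.12 to 0.34 without and from -0.015 to 0.58 for the interaction. These medians rest on 13 mitochondrially encoded members, of which 5 had near-identical copies over at least 98.99 percent of their length.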
